A study of Danio rerio with 6 samples.

Results

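Globin genes and genes of red blood cells were followed in polyadenylated RNA of whole brains of adult zebrafish. Fish homozygous for C246X, a mutant allele of chrna3 made with CRISPR/Cas9, were compared with wild-type (WT) fish, with 3 libraries per genotype. The gene chrna3 encodes a subunit of neuronal nicotinic acetylcholine receptors, and the series asks how it bears on the response to alcohol. No alcohol treatment, age, sex or number of fish per library is stated, and nothing says that libraries came from separate fish, so a p-value here reflects the spread among these 6 libraries, part or all of which may be technical.

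The genes were chosen by name: the globin gene ENSDARG00000097238, hbaa1, hbaa2, hbba1, hbba2, alas2, slc4a1a, cahz, hemgn and creg1. Of these 10 names, 7 led to 1 gene each among the 23678 genes measured. No gene carries the symbol hbba1, hbba2 or slc4a1a in the name table used here. That table gives ENSDARG00000097238 the human symbol HBE1 and gives the same symbol to 2 further genes measured, and it names 2 genes SLC4A1. These 4 further copies (ENSDARG00000069734, ENSDARG00000089087, ENSDARG00000012881 and ENSDARG00000024560) are described beside the 7 by identifier, without saying which zebrafish symbol each one holds. The symbol HBE1 refers to the human embryonic beta-type globin, and nothing in the files says at which stage the zebrafish gene is used. Earlier results of the contrast between the genotypes were known when the genes were chosen. Differences of these genes between genotypes are therefore given as a description. Whether one of them passed in the fit over all genes is part of that description and is not a test of these genes.

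Haemoglobin is a tetramer of alpha-type and beta-type globin chains, each holding a haem group that binds oxygen. Fish red cells keep their nucleus and go on holding globin transcripts in the circulation, so brain tissue that contains blood yields globin reads. In the GRCz12tu gene order hbaa2 lies next to hbba2 and hbaa1 next to hbba1, in 1 cluster of mostly alternating alpha-type and beta-type genes on chromosome 3. Haem is made in erythroid cells through alas2, the anion exchanger of the red-cell membrane is encoded by SLC4A1, cahz encodes a carbonic anhydrase of red cells, hemgn a nuclear regulator of erythroid maturation and creg1 a secreted glycoprotein.

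Each value was the estimated number of reads of a gene after scaling by a factor of its library, called normalised reads below, and values summed to 25655952 to 26794838 per library. The transcript of chrna3 did not separate the genotypes, with 59.8, 40.7 and 57.4 normalised reads in C246X libraries and 102, 28.1 and 55.1 in WT libraries (exact two-sided permutation p = 0.9, where 0.1 is the smallest p that 3 libraries against 3 allow). Because a stop codon can leave transcript levels as they are, chrna3 gives no check on the genotype labels. The neuronal marker gene ELAVL3 had 19464 to 19586 normalised reads in C246X libraries and 19942 to 23912 in WT libraries, and map2, another one, had 7191 to 7804 in C246X libraries and 7613 to 8367 in WT libraries. Across all genes, 5207 of 23104 tested genes (22.5%) passed in limma (adjusted p under 0.05 by Benjamini-Hochberg over all tested genes), and leaving out C246X replicate 1 gave 2975, leaving out C246X replicate 2 gave 3199 and leaving out C246X replicate 3 gave 3190.

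The 7 genes did not differ between the genotypes in a single direction. In the fit over all genes 3 of them passed, 2 higher in C246X (hemgn and creg1) and 1 lower (ENSDARG00000097238), beside 22.5% of all tested genes, of which 11.1% were higher and 11.4% lower. Their median log2 difference was 0.15, against −0.01 over all tested genes. Values of C246X and WT libraries were apart in 4 of the 7, with hemgn and creg1 higher in C246X and ENSDARG00000097238 and alas2 lower, beside 41.4% of all tested genes. Those counts describe genes picked with this contrast known and are not evidence of a shared direction. Without C246X replicate 2, C246X replicate 3 or WT replicate 3 neither hemgn nor creg1 passed, without C246X replicate 1 or WT replicate 2 only 1 of them did, and without WT replicate 2 hbaa2 passed as lower too. In whole tissue, fewer red cells and less of a transcript per red cell cannot be told apart.

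**Figure D1:**
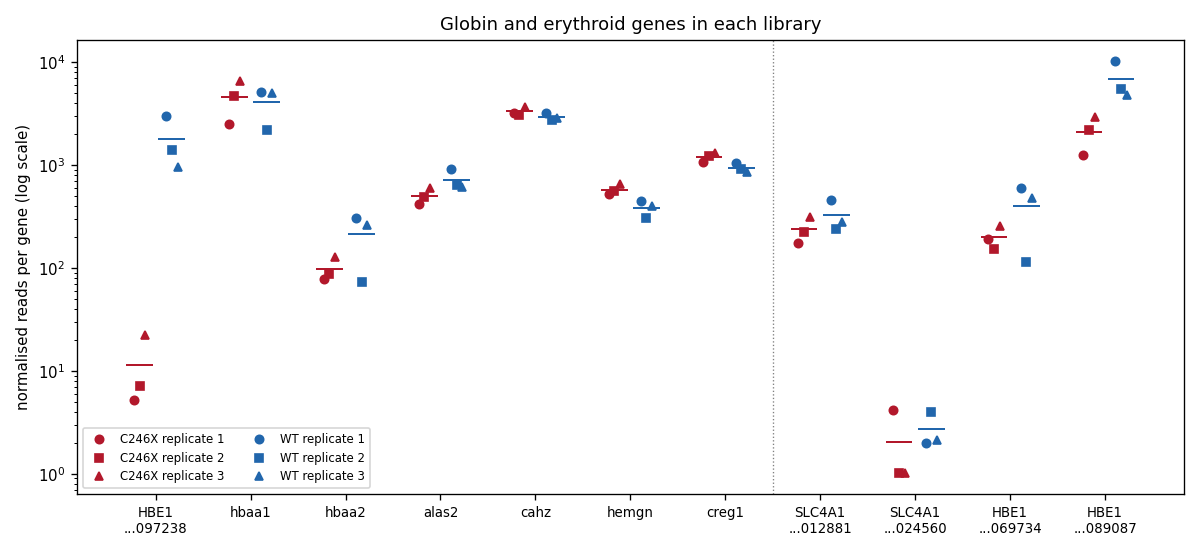
Normalised reads (log scale) of the 7 genes matched by name, left of the dotted line, and of 4 further HBE1 and SLC4A1 copies, right of it, in 3 C246X libraries (red) and 3 WT libraries (blue), with a bar at each genotype's mean and a symbol for each replicate number. The HBE1 copy ENSDARG00000097238 is at 5.16 to 22.2 in C246X and at 962 to 2996 in WT, while hbaa1, hbaa2 and cahz overlap.

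The globin gene ENSDARG00000097238 was nearly absent from C246X brains. It had 5.16, 7.13 and 22.2 normalised reads in the C246X libraries, against 2996, 1391 and 962 in the WT libraries. Every C246X library lay far below every WT library, although the WT libraries themselves spread 3.12-fold. The means were 11.5 ± 9.3 in C246X and 1783 ± 1072 in WT (SD, n = 3 each), a level 155-fold lower in C246X by the ratio of the means. On the log2(value + 1) scale the difference was −7.24 (SE 0.54), and it ran from −7.81 to −6.78 when single libraries were left out. Values of a few reads in C246X carry a large counting error, and reads shared with close globin copies could add to or take from them.

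A second HBE1 copy, ENSDARG00000089087, took more reads than the other globin genes in WT replicates 1 and 2, and slightly fewer than hbaa1 in WT replicate 3. It had 1243, 2174 and 2925 normalised reads in C246X libraries, against 10293, 5428 and 4831 in WT libraries. The genotypes did not overlap, and C246X replicate 3 came nearest to the WT libraries. The mean was 3.24-fold lower in C246X, at 2114 ± 843 against 6851 ± 2996 in WT, and the log2 difference was −1.70 (SE 0.35; −1.97 to −1.36 with single libraries left out).

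The remaining HBE1 copy, ENSDARG00000069734, was carried by fewer reads and overlapped between genotypes. It had 191, 153 and 254 normalised reads in C246X libraries, against 600, 113 and 483 in WT libraries. WT replicate 2 was the lowest of all 6 libraries and WT replicate 1 the highest, so the WT range enclosed all C246X values. The log2 difference was −0.71 (SE 0.56), and without WT replicate 2 it was −1.46.

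The alpha-type globin gene hbaa1 did not separate the genotypes. It had 2516, 4692 and 6531 normalised reads in C246X libraries, against 5147, 2189 and 4985 in WT libraries. The highest of the 6 values was in a C246X library and the lowest in a WT library. The means were 4580 ± 2009 in C246X and 4107 ± 1663 in WT, and the log2 difference was 0.15 with a 95% interval of −0.77 to 1.08. Such a wide interval does not show equal levels. The sign turned without C246X replicate 3 (−0.16) and without WT replicate 2 (−0.25).

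The other alpha-type gene of the set, hbaa2, was carried by far fewer reads. It had 78.4, 86.6 and 128 normalised reads in C246X libraries, against 309, 73.4 and 260 in WT libraries. WT replicate 2 again fell below all C246X libraries, while WT replicates 1 and 3 lay above them all. The log2 difference was −0.91 (SE 0.49), and without WT replicate 2 it was −1.56. Another alpha-type gene, hbae4, had 37.1, 58.1 and 71.5 in C246X libraries and 71.7, 30.1 and 56.1 in WT libraries, with a log2 difference of 0.11 that turned to −0.09 without C246X replicate 3 and to −0.24 without WT replicate 2.

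Alpha-type genes and HBE1 copies were then summed within each library. Reads of hbaa1, hbaa2 and hbae4 summed to 2632, 4837 and 6730 in C246X libraries, against 5527, 2292 and 5300 in WT libraries. Those sums overlapped, and the C246X mean was 1.08 times the WT mean. Reads of the 3 HBE1 copies summed to 1439, 2333 and 3201 in C246X libraries, against 13890, 6932 and 6276 in WT libraries. These sums did not overlap, with a mean 3.89-fold lower in C246X. Together the 6 globin genes held 0.0152% to 0.0376% of the reads of a C246X library and 0.0356% to 0.0731% of those of a WT library.

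**Figure D2:**
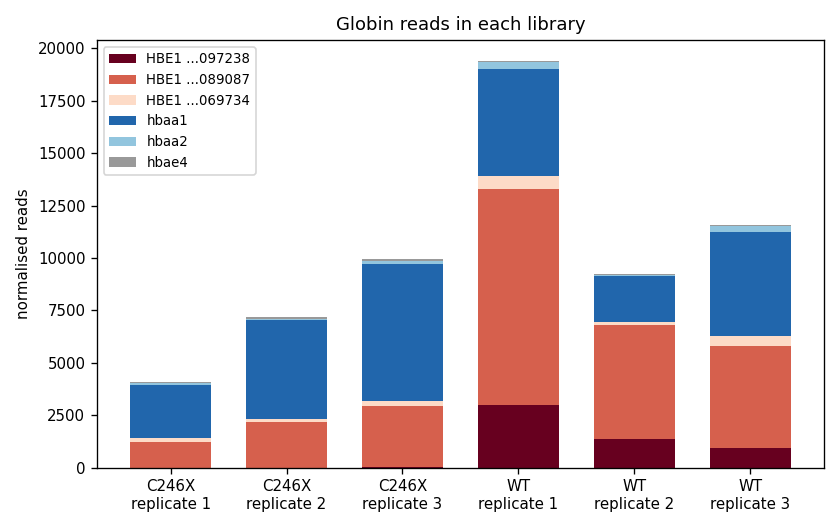
Stacked normalised reads of 6 globin genes in each of the 3 C246X and 3 WT libraries, with the 3 HBE1 copies in red shades at the bottom and the alpha-type genes hbaa1, hbaa2 and hbae4 above them. The copy ENSDARG00000097238 can barely be seen in C246X, and HBE1 reads exceed alpha-type reads in all 3 WT libraries and in no C246X library.

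The ratio of HBE1 reads to alpha-type reads, which is not corrected for gene length and is compared only between libraries, was 0.547, 0.482 and 0.476 in C246X libraries and 2.51, 3.02 and 1.18 in WT libraries. It was tight in C246X (0.502 ± 0.0393) and wide in WT (2.24 ± 0.95). The difference did not spread evenly over the pairs of genes compared. The names used here do not say which HBE1 copy lies next to hbaa1 or hbaa2, and other pairings were not read. ENSDARG00000089087 gave 0.494, 0.463 and 0.448 reads per read of hbaa1 in C246X libraries, against 2, 2.48 and 0.969 in WT libraries. ENSDARG00000069734 gave 2.43, 1.76 and 1.98 reads per read of hbaa2 in C246X libraries, against 1.95, 1.53 and 1.86 in WT libraries. The ratio of the first pair separated the genotypes, and the ratio of the second pair stayed within a narrow range over all 6 libraries although hbaa2 itself varied 4.21-fold among WT libraries.

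Within the HBE1 copies, ENSDARG00000097238 held 0.358%, 0.306% and 0.692% of reads in C246X libraries, against 21.6%, 20.1% and 15.3% in WT libraries. ENSDARG00000089087 held 86.4%, 93.1% and 91.4% in C246X libraries, against 74.1%, 78.3% and 77.0% in WT libraries. The reads of ENSDARG00000097238 came to 0.415%, 0.328% and 0.758% of those of ENSDARG00000089087 in C246X libraries, against 29.1%, 25.6% and 19.9% in WT libraries. Measured against its most abundant copy, ENSDARG00000097238 was 49.7-fold lower in C246X by the means of this ratio. The ratio of hbaa2 to hbaa1 reads was 3.12%, 1.85% and 1.96% in C246X libraries and 6%, 3.35% and 5.21% in WT libraries, which did not overlap.

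The haem synthesis gene alas2, which encodes the first enzyme of the pathway in erythroid cells, was lower in every C246X library than in any WT library, but did not pass in the fit over all genes. It had 418, 494 and 604 normalised reads in C246X libraries, against 908, 640 and 608 in WT libraries. C246X replicate 3 and WT replicate 3 were almost equal. The means were 505 ± 93.8 in C246X and 719 ± 165 in WT, and the log2 difference was −0.50 (SE 0.18; −0.64 to −0.32 with single libraries left out).

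One SLC4A1 copy, ENSDARG00000012881, had 173, 223 and 313 normalised reads in C246X libraries, against 456, 237 and 281 in WT libraries. C246X replicate 3 lay above WT replicates 2 and 3, so the genotypes overlapped, and the log2 difference was −0.44 (SE 0.28; −0.66 to −0.17 with single libraries left out). The other copy, ENSDARG00000024560, had 1.01 to 4.13 normalised reads in C246X libraries and 1.99 to 4.02 in WT libraries, too few to compare.

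The nuclear regulator gene hemgn was higher in C246X. It had 521, 558 and 647 normalised reads in C246X libraries, against 451, 303 and 397 in WT libraries, and the genotypes did not overlap. The means were 575 ± 65 in C246X and 384 ± 74.7 in WT, 1.5 times as high in C246X, with a log2 difference of 0.60 (SE 0.15; 0.44 to 0.72 with single libraries left out). The gene creg1 was also higher, with 1073, 1235 and 1314 in C246X libraries, against 1054, 922 and 848 in WT libraries. Its genotypes were separated only by the small gap between C246X replicate 1 and WT replicate 1, and the log2 difference was 0.36 (SE 0.1). The carbonic anhydrase gene cahz had 3232, 3096 and 3689 in C246X libraries, against 3192, 2742 and 2886 in WT libraries. WT replicate 1 lay between the C246X values, and the log2 difference was 0.18 (SE 0.084).

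The genes were also read within a library, relative to alas2, a measure chosen after seeing the data. Per read of alas2, hemgn gave 1.25, 1.13 and 1.07 reads in C246X libraries, against 0.496, 0.473 and 0.653 in WT libraries, a mean ratio 2.12 times as high in C246X. Per read of alas2, creg1 gave 2.57, 2.5 and 2.17 in C246X libraries, against 1.16, 1.44 and 1.4 in WT libraries. Per read of alas2, cahz gave 7.74, 6.27 and 6.1 in C246X libraries, against 3.52, 4.28 and 4.75 in WT libraries. None of these 3 ratios overlapped between the genotypes. How many of all genes would separate in the same way was not computed, so the separation is not shown to be particular to these 3. Because alas2 was itself lower in C246X, dividing by it raises every gene in C246X relative to WT. The log2 difference moved from 0.18 to 0.68 for cahz, from 0.6 to 1.1 for hemgn and from 0.36 to 0.86 for creg1. The ratios thus restate the level differences, with that of alas2 added.

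The ratio of the SLC4A1 copy ENSDARG00000012881 to alas2 overlapped between the genotypes, with 0.415, 0.452 and 0.518 reads per read of alas2 in C246X libraries, against 0.502, 0.37 and 0.462 in WT libraries. The mean ratios were 0.462 ± 0.0525 in C246X and 0.445 ± 0.0675 in WT. The ratio of hbaa1 to alas2 was 6.02, 9.5 and 10.8 in C246X libraries and 5.67, 3.42 and 8.2 in WT libraries, and it overlapped. The ratio of ENSDARG00000089087 to alas2 was 2.98, 4.4 and 4.84 in C246X libraries and 11.3, 8.48 and 7.95 in WT libraries. That of ENSDARG00000097238 was 0.0123, 0.0144 and 0.0367 in C246X libraries and 3.3, 2.17 and 1.58 in WT libraries. Relative to alas2, the 2 HBE1 copies that separated the genotypes by level still did so, and the other HBE1 copy and hbaa2 overlapped. The gene cahz, which overlapped by level, did not once divided by alas2, itself lower in C246X.

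**Figure D3:**
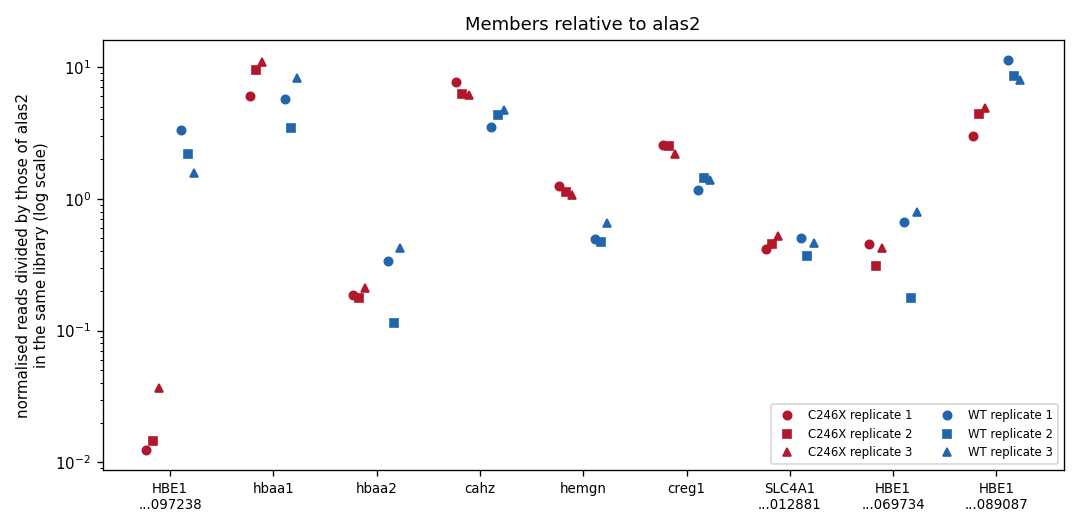
Normalised reads of each gene divided by those of alas2 in the same library (log scale), for 3 C246X libraries (red) and 3 WT libraries (blue), with a symbol for each replicate number. The ratio of the SLC4A1 copy ENSDARG00000012881 lies at 0.37 to 0.518 in all 6 libraries, cahz, hemgn and creg1 are higher in C246X, and the HBE1 copies ENSDARG00000097238 and ENSDARG00000089087 are lower. The divisor alas2 is itself lower in C246X, which raises every ratio there.

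Among libraries of 1 genotype, the genes shared the highest library, while they did not all share the lowest one. Earlier results of these data were known when the genes were chosen, so this order is a description too. C246X replicate 3 was the highest C246X library for all 7 genes and for the 3 further copies with a mean of at least 10 normalised reads, while it was the highest for 30.8% of 19604 genes with that mean. C246X replicate 1 was at the same time the lowest for 6 of the 7, all but cahz, beside 17.2% of the 19604 genes that had this order. WT replicate 1 was the highest WT library for all 7 and for the same 3 copies, beside 34.3% of all genes. WT replicate 2 was then the lowest for 4 of the 7 (hbaa1, hbaa2, cahz and hemgn) and WT replicate 3 for the other 3. These genes come from the same libraries and may share cells, so they are not independent of each other.

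The genes differed in how far they varied within a genotype. The highest library of a genotype was 2.6 times the lowest for hbaa1 in C246X and 2.35 times in WT. For ENSDARG00000012881, the more abundant SLC4A1 copy, these factors were 1.81 in C246X and 1.92 in WT, and for alas2 they were 1.45 in C246X and 1.49 in WT. For cahz they were only 1.19 in C246X and 1.16 in WT, and for creg1 1.22 in C246X and 1.24 in WT. The median over 19378 genes with a mean of at least 10 and no value of 0 was 1.16 in C246X and 1.22 in WT. The transcripts of cahz and creg1 thus varied about as much between libraries of 1 genotype as a typical gene, and the globin, SLC4A1 and alas2 transcripts varied more. Between these groups lay hemgn, with 1.24 in C246X, near creg1, and 1.49 in WT, like alas2.

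**Figure D4:**
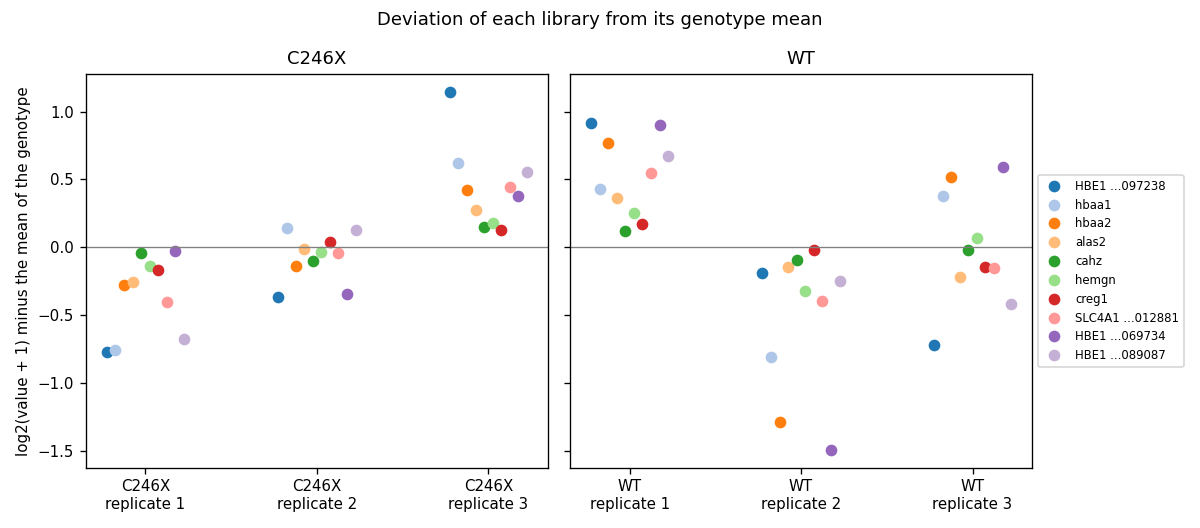
Deviation of log2(value + 1) from the mean of the genotype, for the 7 genes and the 3 further copies with a mean of at least 10 normalised reads, in the C246X libraries (left) and the WT libraries (right), 1 colour per gene. All 10 genes lie above 0 in C246X replicate 3 and in WT replicate 1, and cahz and creg1 stay closest to 0.

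The mean log2(value + 1) of hbaa1, hbaa2, alas2, cahz and hemgn was 9.40, 9.66 and 10.02 in C246X libraries and 10.18, 9.26 and 9.94 in WT libraries. Genes with a mean of at least 20 were ranked by Pearson correlation with this level over the 6 libraries, out of 18241 genes. The most alike was the ribosomal protein gene RPL13A (r = 0.995), with 5004, 5171 and 5457 normalised reads in C246X libraries and 5647, 4930 and 5448 in WT libraries. Next came a CSRP1 copy (ENSDARG00000030980, r = 0.988), AGMO (0.985), dhrs12lb (0.984), si:ch211-145b13.6 (0.976), the keratin gene krt91 (0.975), ginm1 (0.972) and DMRTA2 (0.969). With so many genes and 6 libraries, high values arise for some genes in any case, so they describe likeness in these libraries only. Of the further copies, ENSDARG00000069734 ranked at place 179 (r = 0.863), ENSDARG00000012881 at 239 (0.842) and ENSDARG00000089087 at 2474 (0.488). For deviations from the genotype means, r was 0.891 for ENSDARG00000069734, 0.901 for ENSDARG00000012881 and 0.726 for ENSDARG00000089087.

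Genes that work beside the globins were read as lists, beside 11.1% of all tested genes higher and 11.4% lower. All lists read here were chosen with earlier results of these data known, so their counts and p-values are a description. HBE1 was added to the list of other red-cell globins after some values were seen. In the list of other red-cell globins only 3 genes were measured, hbae4 and the further HBE1 copies, of which ENSDARG00000089087 passed as lower. Of 21 haem synthesis genes 2 rose and 1 fell (median log2 difference 0). ABCB6 (ENSDARG00000063297), a transporter of the pathway, rose by 0.51 (limma, adjusted p = 0.0193), the iron-sulphur scaffold gene ISCU (ENSDARG00000035596) rose by 0.32, and uros, an enzyme of the pathway, fell by 0.42. The haem synthesis genes that rose numbered 0 without C246X replicates 1 or 2 or WT replicate 3 and 1 without C246X replicate 3 or WT replicate 2, and uros passed in none of the leave-one-out fits but the one without WT replicate 3. Of 20 erythroid transcription factors 2 rose and 1 fell (median 0.08), and LDB1 (ENSDARG00000103158), a cofactor of erythroid factors that is also used elsewhere, rose by 0.50 (limma, adjusted p = 0.00474) and passed whichever library was left out. BCL11A rose by 0.23 and CBFB fell by 0.49; those that rose numbered 1 without C246X replicates 1, 2 or 3 or WT replicate 2, and CBFB did not pass without C246X replicate 3.

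Of 24 red-cell membrane and skeleton genes 1 rose and 1 fell (median −0.06). The adducin gene ADD3 (ENSDARG00000040874) fell to 1797 ± 86.5 in C246X, against 2657 ± 81.4 in WT (limma, adjusted p = 0.000582), whichever library was left out, and add2, of the same family, rose by 0.26. Those that rose numbered 0 without C246X replicates 1 or 2 and 3 without WT replicate 2. Of 24 genes of iron uptake and haem handling 1 rose and 3 fell (median 0.03). The transferrin receptor gene tfr1a, through which red-cell precursors take up iron, fell by 0.69, FLVCR2 (ENSDARG00000031506) fell by 0.32, hamp passed as lower at a mean of 0.34 normalised reads in C246X and 4.4 in WT, and the ferritin-like gene fthl27 rose by 0.94. Those that fell numbered 2 without C246X replicate 1 or WT replicate 2, 1 without C246X replicate 3 or WT replicates 1 or 3 and 0 without C246X replicate 2. Of the leave-one-out fits, fthl27 passed only in the one without WT replicate 1.

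Of 35 red-cell enzyme and other erythroid-enriched genes 1 rose and 5 fell (median −0.02). The glutathione peroxidase gene gpx1a fell to 508 ± 59 in C246X, against 1011 ± 110 in WT (limma, adjusted p = 0.000774), and mibp fell by 1.34. Both passed whichever library was left out. BNIP3L (ENSDARG00000028067), SELENBP1 and ucp3 also passed as lower, ucp3 at a mean of only 0.34 in C246X and 5.06 in WT, and TAL2 rose by 0.32. Those that fell numbered 2 without C246X replicates 1 or 3 and 3 without WT replicates 1 or 2. Of the leave-one-out fits, TAL2 passed only in the one without WT replicate 1. Of 5 globins of other cells 1 fell, the androglobin gene ADGB, by 0.63 (limma, adjusted p = 0.0215; 0 fell without C246X replicates 2 or 3 or WT replicate 2, and 2 without WT replicate 3). Most of these genes are also used by brain cells, so their levels in whole brain are not levels in red cells.

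**Figure D5:**
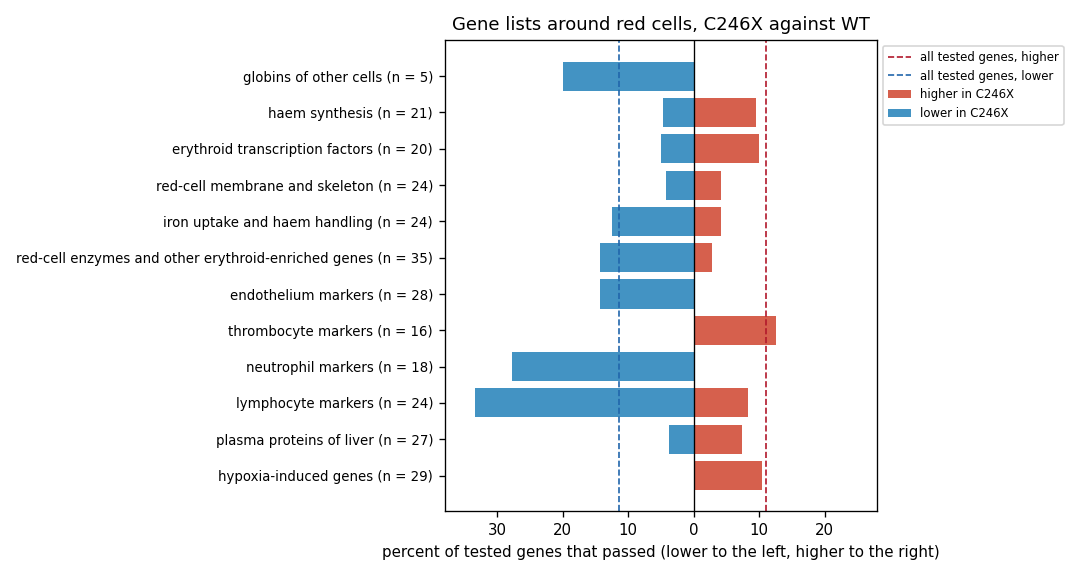
Percent of the tested genes of each list that passed in limma as lower (blue, to the left) or higher (red, to the right) in C246X than in WT, for lists with at least 5 tested genes, with dashed lines at the shares over all tested genes (11.4% lower and 11.1% higher). The largest shares lower are those of lymphocyte and neutrophil markers, and the shares lower of haem synthesis genes, erythroid transcription factors and red-cell membrane genes are below the line.

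Markers of other cells of blood and vessels were read in the same libraries. Of 28 endothelium markers 0 rose and 4 fell (median −0.09), with summed levels of 12575 to 15998 in C246X libraries and 14363 to 16847 in WT libraries, and the defining markers kdrl, cdh5, TIE1, tek and EGFL7 were above 0 in all libraries and did not pass. Those that fell were ramp2, by 1 on the log2 scale (limma, adjusted p = 0.000974), plvapa, DUSP5 and clec14a, and they numbered 2 without C246X replicate 2 or WT replicate 2 and 1 without C246X replicates 1 or 3 or WT replicate 3. Of 16 thrombocyte markers 2 rose and 0 fell (median 0.14; 1 rose without C246X replicates 2 or 3, and 1 fell without C246X replicate 3), with summed levels of 1016 to 2506 in C246X and 979 to 2989 in WT. Without F13A1 (ENSDARG00000045453), the most abundant gene of this list, the sums were 955 to 1375 in C246X and 770 to 1352 in WT. FERMT3 (ENSDARG00000030938) rose to 65.9 ± 11.3 in C246X, against 23.1 ± 2.26 in WT (limma, adjusted p = 0.00444), and GP1BB rose by 1.2. GP1BB, a defining marker, had 178 ± 61.8 normalised reads in C246X and 73.9 ± 8.96 in WT. The other defining markers, itga2b, mpl and gp9, did not pass and had lower means in C246X. Levels of itga2b were 18.9 ± 13.8 in C246X and 34.7 ± 21.2 in WT. For mpl they were 4.56 ± 5.26 in C246X and 7.28 ± 5.06 in WT, and for gp9 33.6 ± 12.9 in C246X and 34.8 ± 7.15 in WT.

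Of 18 tested neutrophil markers 0 rose and 5 fell (median −0.51), with summed levels of 2915 to 3336 in C246X and 3552 to 3892 in WT. The receptor gene il6r fell by 1.61 on the log2 scale, and NCF1, MMP9, LECT2 (ENSDARG00000090889) and CEBPA also fell. The defining markers lyz, npsn and CSF3R did not pass and overlapped, with lyz at 36.5 ± 21.5 in C246X and 34.5 ± 43.3 in WT, npsn at 97.4 ± 48.4 in C246X and 73.6 ± 35 in WT, and CSF3R at 34.9 ± 16.1 in C246X and 47.3 ± 10.9 in WT. These markers hold a small part of the sum, whose most abundant gene is CEBPA, and without CEBPA the sums were 1640 to 2083 in C246X libraries and 2140 to 2476 in WT libraries. Of this list 1 fell without C246X replicates 1 or 2 or WT replicate 2, 2 without WT replicate 3 and 3 without WT replicate 1. Of 24 lymphocyte markers 2 rose and 8 fell (median −1.04), with summed levels of 6553 to 6842 in C246X and 6283 to 6581 in WT. ZAP70, a T-cell kinase gene, fell to 35.3 ± 9.27 in C246X, against 91.8 ± 15.1 in WT (limma, adjusted p = 0.00855). Also lower were tnfrsf9a, ccl38.6, cd4-1, CCR9 (ENSDARG00000055186), lck and the immunoglobulin genes ighm and igic1s1. The marker il7r overlapped, at 23.7 ± 8.92 in C246X and 34.8 ± 14.9 in WT. The B-cell gene cd79a was near the floor in both genotypes, with 0, 0 and 3.02 normalised reads in C246X libraries and 1.99, 5.02 and 2.12 in WT libraries. The lymphocyte markers that fell numbered 5 without C246X replicate 1 and 4 without C246X replicate 2 or WT replicate 3, and those that rose, RAG2 and bcl11ba, 1 without C246X replicate 3 and 0 without any other library. The lymphocyte sum is mostly bcl11ba, at 5974 ± 115 in C246X and 5327 ± 70.3 in WT, a gene that neurons also use. Without bcl11ba, a choice made after seeing the data, the sums were 643, 729 and 735 in C246X libraries and 1233, 1035 and 1116 in WT libraries, lower in every C246X library. Neutrophil sums were lower in C246X, and lymphocyte sums were so only without bcl11ba. Sums of red-cell enzyme and other erythroid-enriched genes were also lower, at 25405 to 26440 in C246X and 26940 to 29022 in WT. Those of erythroid transcription factors were higher, at 13727 to 13999 in C246X and 12169 to 12453 in WT. Sums of haem synthesis, membrane and iron genes overlapped. Of single tested genes 41.4% were apart, and no such share was computed for sums. Among the genes matched by name and the further copies, alas2 and the HBE1 copies ENSDARG00000097238 and ENSDARG00000089087 were lower in C246X, though alas2 did not pass. The genes hemgn and creg1 were higher, though neither passed without C246X replicate 2, C246X replicate 3 or WT replicate 3. Within a genotype creg1 varied about as much as a typical gene. The levels of cahz and the alpha-type globin sums overlapped, as did endothelium and thrombocyte sums and the defining neutrophil markers. The part of blood content in the globin values was not tested.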

How the data were processed

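The authors' deposited matrix gives 1 signal value per gene and library, read from the values as estimated reads scaled by a library factor: 95.0% to 95.1% of values under 1000 are whole multiples, within 0.03, of 1 step of 0.996 to 1.06. The submitters' processing notes name STAR and the GRCz11 build, and reads were 150 bp long per the labels' protocols. How reads were counted and scaled, and which versions were used, is not given in the sources used here. Although the design allowed for counts, the test it states for other values was used. Genes with a mean of at least 1 were fitted on log2(value + 1) with limma 3.58.1 in R 4.3.3 (mean-variance trend) and adjusted by Benjamini-Hochberg over 23104 genes. Fold changes on this scale understate changes of low genes. The code was tested on simulated data. Divided by these steps, libraries held 24222353 to 26659987 reads. C246X libraries were matched to titles by genotype and replicate number.

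Names came from a gene-name table, exactly or, for zebrafish symbols not found, by the human-style symbol without the copy letter; 22274 of 23678 genes have a symbol. The genes and 13 lists were chosen with earlier results of these data known, and HBE1 was added to the list of other globins after names and some values were seen. Named were all members, the globins of that list with a mean of at least 10, up to 2 genes per list and direction with the smallest p, the 8 genes most alike and chrna3; genes named to complete a count and markers were chosen after their values were seen. Alternatives were scaling by medians of ratios computed anew, by upper quartile or by total, no filter, 1 CPM in 3 libraries, a pseudocount of 0.1, limma-voom on the reads recovered from the steps, a replicate block and each library left out; ratios to alas2 and marker sums without the most abundant gene were alternatives chosen after seeing the data. Near-identical globin copies may share reads. Plots used matplotlib 3.10.9 in Python 3.11.15.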

Additional observations from a re-analysis of the deposited data

How the results depend on the processing

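Counts of calls and log2 differences were recomputed under 8 other settings and with each library left out, and the globin share with libraries left out; ratios, library order, spread and likeness were not, and marker sums only without their most abundant gene. Genes differing between genotypes numbered 4592 to 5223 under the other settings, and 2975 to 4778 with single libraries left out (1394 to 2425 higher, 1581 to 2353 lower). Members past the threshold as higher numbered 1 under total-count scaling, limma-voom and the replicate block, 0 with no filter and 0 to 2 with single libraries left out, and those lower 1 to 2. With single libraries left out, the log2 difference of hbaa1 ran from −0.25 to 0.53 and that of hbae4 from −0.24 to 0.37; leaving out C246X replicate 3 turned them to −0.16 (hbaa1) and −0.09 (hbae4). The globin members ENSDARG00000097238, hbaa1 and hbaa2, without the other globin genes summed above, held a mean of 0.0178% of reads in C246X and 0.0234% in WT. With single libraries left out, this mean ran from 0.014% to 0.0218% in C246X and from 0.0192% to 0.028% in WT.

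With no filter, higher counts were 1 for haem synthesis, 0 for iron, 2 for red-cell enzymes, 1 for lymphocyte markers and 1 for plasma proteins, and lower counts were 0 for haem synthesis, 2 for endothelium and 2 for neutrophil markers. Upper-quartile scaling gave 2 higher membrane genes and 1 higher lymphocyte marker. Total-count scaling and limma-voom each gave 1 higher lymphocyte marker and 1 lower hypoxia gene. The minimum of 1 CPM gave 4 lower lymphocyte markers and 0 higher plasma genes, and the pseudocount of 0.1 gave 1 higher plasma gene. The replicate block called 4764 genes and gave 0 lower haem genes, 0 higher red-cell enzymes, 1 lower thrombocyte marker, 0 higher lymphocyte markers and 2 lower hypoxia genes.

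With single libraries left out, higher counts ran from 0 to 2 for haem synthesis, 1 to 3 for transcription factors, 0 to 3 for membrane, 0 to 1 for iron, enzymes, endothelium and lymphocytes, 1 to 3 for thrombocytes, 0 to 3 for plasma proteins and 2 to 3 for hypoxia. Lower counts ran from 1 to 2 for other red-cell globins, 0 to 2 for globins of other cells, iron and hypoxia, 0 to 1 for haem synthesis, transcription factors and thrombocytes, 2 to 5 for enzymes, 1 to 3 for endothelium, 1 to 5 for neutrophils and 4 to 7 for lymphocytes. The cause of these shifts was not tested. Deviations of same-numbered libraries correlated at 0.141, 0.109 and 0.0815, so the numbers were not taken as pairs, although each library correlated best with its own number. With 3 libraries per genotype, genes of a few reads are limited by counting error.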

Other observations

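Of 29 genes induced by low oxygen, 3 rose and 0 fell in C246X brains (median log2 difference −0.06), beside 11.1% higher and 11.4% lower over all tested genes, so the share that rose is about that of all genes. Their summed level was 40820 to 41463 normalised reads in C246X and 43135 to 46129 in WT. That sum was not read without its most abundant genes, so it does not show a fall of these genes as a set. PFKFB3, a regulator of glycolysis, had 2092 ± 119 normalised reads in C246X and 1354 ± 122 in WT (limma, adjusted p = 0.00146), VEGFA (ENSDARG00000103542), a growth factor of vessels, had 507 ± 16.8 in C246X and 355 ± 26 in WT (adjusted p = 0.00548), and EGLN1 (ENSDARG00000038996), an oxygen sensor, was the other. The first 2 passed whichever library was left out. The number that fell was 2 without C246X replicate 1 and 1 without WT replicates 1 or 2. Of 27 plasma protein genes of the liver, 2 rose and 1 fell (median 0.49), with summed levels of 29822 to 34867 in C246X and 23948 to 31278 in WT. The genes serpina1l and fga passed as higher at 5.16 to 16.1 normalised reads in C246X and 0 to 3.98 in WT, and ahsg1 fell to 61.1 ± 2.92 in C246X, against 174 ± 32.4 in WT. These genes hold a small part of the summed levels, which rest on other genes of the list. The plasma protein genes that rose numbered 0 without C246X replicates 2 or 3 and 1 without C246X replicate 1 or WT replicate 3.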
